A study of Mus musculus with 6 samples.

Results

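Whole-lung RNA from mice carrying a transgene for Scnn1b, which encodes one subunit (β) of the airway epithelial sodium channel, was compared with RNA from wild-type mice for 9 genes that identify lung macrophages. The genes were Marco, Pparg, Krt79 and Plet1, which mark alveolar macrophages, Mrc1, which is high in alveolar macrophages and in some interstitial ones, and Adgre1, Cd68, Csf1r and Mertk, which alveolar macrophages share with other macrophages. All 9 were taken by name from the 19935 genes with a value, and each was read by 1 probe set. Both groups were of the C57BL/6 background, with 3 arrays of Scnn1b-Tg lung and 3 arrays of wild-type lung, and the stated purpose of the series was a search for candidate genes of emphysema. The sources used here do not give age, sex, treatment or the number of animals behind an array, so p-values reflect only how these samples spread, which may be technical. As background, the published Scnn1b-Tg line carries its transgene under a promoter of airway secretory cells, so macrophages are not the cells in which it is driven; the labels name no promoter.

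The lung holds at least a pair of resident macrophage populations. Alveolar macrophages lie on the air side of the alveolar wall, where they take up surfactant and inhaled particles, and their identity depends on the growth factor GM-CSF and on the nuclear receptor PPARγ, which it induces. Interstitial macrophages lie within the tissue around vessels and airways and depend more on CSF1 and its receptor. Several of these genes are also read in other cells, Adgre1 in eosinophils and monocytes, Mrc1 in lymphatic endothelium and Pparg in fat cells and in alveolar type 2 cells. In whole tissue, a different number of cells and a different amount of RNA per cell cannot be told apart.

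The transgene's own gene, Scnn1b, had intensities of 1405, 1527 and 1333 in Scnn1b-Tg lungs, against 172, 108 and 139 in wild-type lungs (all 3 transgenic arrays above all wild-type ones). It was the 1 gene called at an adjusted p under 0.05 among all 19935 (limma, Benjamini-Hochberg), or 0.00502% of genes. Array medians were 47.6 to 48.5, and the lowest value on an array was 18.3 to 18.6, so no marker can be at 0 on this scale. On the first principal component of all genes (34.0% of the variance) wild type replicate 2 stood apart, and on the second (22.6%) Scnn1b-Tg replicate 3. The tissue label was checked against epithelial markers: the surfactant gene Sftpc had 7656 to 8534 in Scnn1b-Tg lungs and 7241 to 8338 in wild-type lungs, and the club cell gene Scgb1a1 had 3379 to 3660 and 3948 to 4579.

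The start-site sequences of 3 members are shown. Among the windows searched, these were the members that held the core motif of PU.1 at the 1 start listed for the gene. PU.1 is the transcription factor that drives macrophage identity. Each window runs from 250 bases before to 50 bases after the start in RefSeq on GRCm38.p6. Windows were searched for 7 of the 9 members. Adgre1 and Csf1r were left out of the search, so whether their starts hold the motif was not tested. The motif searched was GAGGAA on both strands, and capitals mark each match, so that a match on the other strand reads TTCCTC. Cd68 lies at chr11:69666121-69666420 (minus strand), Mrc1 at chr2:14229164-14229463 (plus strand) and Marco at chr1:120504975-120505274 (minus strand).
Cd68: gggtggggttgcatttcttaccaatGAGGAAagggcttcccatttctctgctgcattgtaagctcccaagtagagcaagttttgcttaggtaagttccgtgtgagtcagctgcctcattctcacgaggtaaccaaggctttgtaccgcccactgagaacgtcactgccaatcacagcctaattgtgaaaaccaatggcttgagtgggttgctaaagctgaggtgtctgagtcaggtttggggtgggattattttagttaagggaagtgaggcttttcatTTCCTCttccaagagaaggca
Mrc1: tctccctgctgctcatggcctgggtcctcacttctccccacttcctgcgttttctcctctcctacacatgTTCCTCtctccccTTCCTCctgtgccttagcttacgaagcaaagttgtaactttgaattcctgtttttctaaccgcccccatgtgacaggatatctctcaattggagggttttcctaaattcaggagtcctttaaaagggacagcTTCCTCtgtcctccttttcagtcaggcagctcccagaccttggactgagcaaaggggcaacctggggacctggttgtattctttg
Marco: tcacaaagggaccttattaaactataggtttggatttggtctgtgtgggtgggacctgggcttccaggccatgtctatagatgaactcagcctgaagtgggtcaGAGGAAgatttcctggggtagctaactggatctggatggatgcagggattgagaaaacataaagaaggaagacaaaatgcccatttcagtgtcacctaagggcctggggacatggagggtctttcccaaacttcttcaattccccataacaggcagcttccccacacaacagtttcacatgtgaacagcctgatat

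Cd68 held 2 matches, starting 225 bases before and at base 30 after the start, Mrc1 held 3 and Marco held 1. Of the 9 windows searched for members, 4 held the motif, 1 of them among the 3 windows of Pparg, and 28.3% of all 32851 promoter windows held it. These are matches of letters and say nothing of what binds there. Cd68 and Mrc1 were higher on every Scnn1b-Tg array than on any wild-type array, while Marco was not.

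No member passed an adjusted p of 0.05 in limma over all genes, against 0.00502% of genes called. The members divided into those with separate groups and those with overlapping ones: Adgre1, Csf1r, Cd68 and Mrc1 were higher on all 3 Scnn1b-Tg arrays than on all 3 wild-type arrays, which makes 4 of 9, against 6.26% of all genes. For 0 of 9 the order was the opposite, against 4.41% of all genes. The same 4 had an unadjusted p under 0.05 in the higher direction, against 3.96% of all genes (6.01% in either direction). A positive log2 fold change (Scnn1b-Tg over wild type) was seen for 8 of 9, against 53.2% of all genes. The median log2 fold change of the 9 was 0.16, beside 0.0052 for all genes.

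Adgre1 encodes F4/80, the surface receptor long used to stain mouse macrophages. Its intensities were 169, 113 and 106 in Scnn1b-Tg lungs, against 79.1, 68.6 and 76.1 in wild-type lungs. Every Scnn1b-Tg array lay above the wild-type arrays, and Scnn1b-Tg replicate 1 lay well above the other Scnn1b-Tg arrays. The means were 129 ± 34.5 (SD, n = 3) in Scnn1b-Tg and 74.6 ± 5.39 (SD, n = 3) in wild type, which is 1.70-fold and on the log2 scale 0.76 ± 0.17 (SE). Its unadjusted 95% confidence interval ran from 0.36 to 1.16, and the adjusted p was 0.398 in limma. Only 0.115% of all genes had a larger log2 fold change. Without Scnn1b-Tg replicate 1 the log2 fold change was 0.55.

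Csf1r is the receptor for CSF1 and IL-34, on which survival of most tissue macrophages depends. It gave intensities of 198, 176 and 213 in Scnn1b-Tg lungs, against 143, 151 and 159 in wild-type lungs. The lowest Scnn1b-Tg array was 1.10 times the highest wild-type array. With means of 195 ± 18.7 (SD, n = 3) in Scnn1b-Tg and 151 ± 8.13 (SD, n = 3) in wild type, Csf1r was higher by 0.37 ± 0.080 on the log2 scale (SE; 95% interval 0.18 to 0.56; limma adjusted p = 0.376).

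Cd68 encodes macrosialin, a glycoprotein of the late endosomes and lysosomes of phagocytes. It had 198, 197 and 200.3 in Scnn1b-Tg lungs, against 152, 163 and 160 in wild-type lungs. Its Scnn1b-Tg arrays were nearly equal and all were at least 1.21 times the highest wild-type array. The means were 198 ± 1.75 (SD, n = 3) in Scnn1b-Tg and 158 ± 5.25 (SD, n = 3) in wild type, and the log2 fold change of 0.33 ± 0.044 (SE; 95% interval 0.22 to 0.43) had the smallest adjusted p of the 9, at 0.139 in limma. Its log2 fold change was smaller than that of Adgre1 and Csf1r, and its standard error was smaller too. Single arrays left out moved it only between 0.30 and 0.35.

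Mertk, a receptor kinase that binds apoptotic cells through the bridging proteins GAS6 and protein S, did not separate the groups. It had 181, 189 and 199 in Scnn1b-Tg lungs, against 169, 195 and 190.3 in wild-type lungs. On the log2 scale it differed by 0.040 ± 0.069 (SE; 95% interval -0.12 to 0.20; limma adjusted p = 0.989). Among the shared macrophage genes it was the 1 member whose groups overlapped.

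Mrc1 encodes the mannose receptor CD206, a lectin that takes up glycoproteins. Its intensities were 172, 174 and 198 in Scnn1b-Tg lungs, against 162, 162 and 161 in wild-type lungs. The wild-type arrays were nearly equal, and the Scnn1b-Tg arrays were above them by as little as 1.06 times. On the log2 scale the fold change was 0.16 ± 0.062 (SE; 95% interval 0.015 to 0.31; limma adjusted p = 0.777). Without Scnn1b-Tg replicate 3 it was 0.097.

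**Figure D1:**
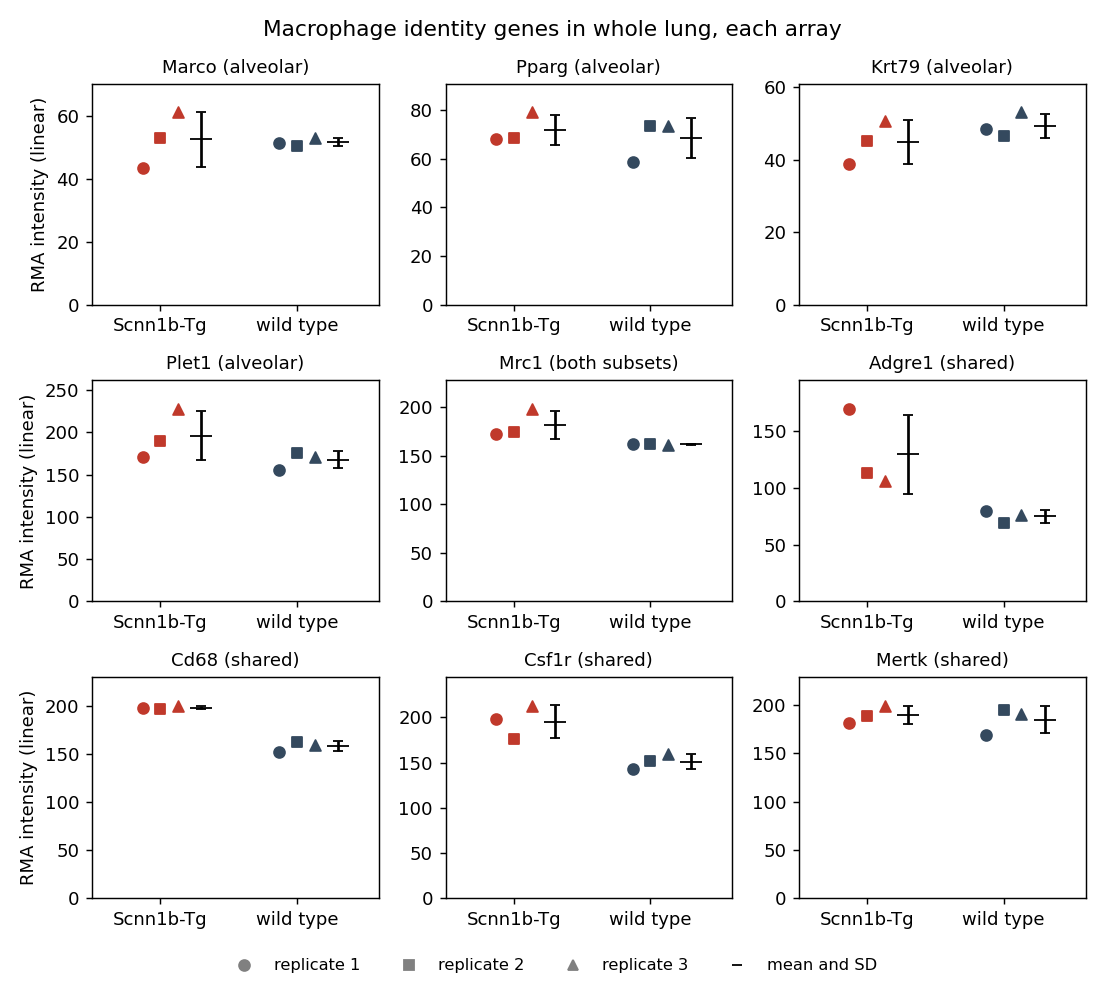
RMA intensity on a linear scale (y axis, from 0) of each of the 9 genes on every array, with Scnn1b-Tg in red and wild type in dark blue; the marker shape gives the replicate number and the black bar the mean and SD of 3 arrays. The groups are separate for Mrc1, Adgre1, Cd68 and Csf1r and overlap for the other 5 genes.

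Of the alveolar macrophage genes, 0 of 4 separated the groups, where 6.26% of all genes were separate upward and 4.41% downward. Marco, a scavenger receptor that binds bacteria and particles, had 43.4, 53.0 and 61.0 in Scnn1b-Tg lungs, against 51.3, 50.4 and 52.9 in wild-type lungs. The Scnn1b-Tg arrays lay on both sides of the wild-type ones, so that the means were 52.5 ± 8.79 (SD, n = 3) in Scnn1b-Tg and 51.5 ± 1.28 (SD, n = 3) in wild type. On the log2 scale they differed by 0.012 ± 0.12 (SE; 95% interval -0.26 to 0.28; limma adjusted p = 0.995). Its sign turned in 7 of 15 alternative settings.

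Pparg, the nuclear receptor that sets the lipid-handling state of alveolar macrophages, had 68.1, 68.5 and 79.0 in Scnn1b-Tg lungs, against 58.8, 73.3 and 73.4 in wild-type lungs. Its groups overlapped, with a log2 fold change of 0.073 ± 0.10 (SE; 95% interval -0.17 to 0.32; limma adjusted p = 0.983). Krt79, a keratin whose RNA is found in mouse alveolar macrophages as well as in skin epithelium, had 38.7, 45.3 and 50.8 in Scnn1b-Tg lungs, against 48.5, 46.5 and 53.0 in wild-type lungs. It was the 1 member with a negative log2 fold change, at -0.14 ± 0.10 (SE; 95% interval -0.39 to 0.10; limma adjusted p = 0.927), and without Scnn1b-Tg replicate 1 this was -0.039. Plet1, a surface protein first described on placental and epithelial progenitors and also expressed by mouse alveolar macrophages, had 171, 189 and 227 in Scnn1b-Tg lungs, against 156, 175 and 171 in wild-type lungs. Scnn1b-Tg replicate 1 fell just below the highest wild-type array. Its log2 fold change of 0.22 ± 0.11 (SE; 95% interval -0.032 to 0.47; limma adjusted p = 0.867) was the largest of the alveolar genes, and it was 0.11 without Scnn1b-Tg replicate 3. The upper ends of these intervals leave room for a log2 increase of 0.28 in Marco and 0.47 in Plet1.

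**Figure D2:**
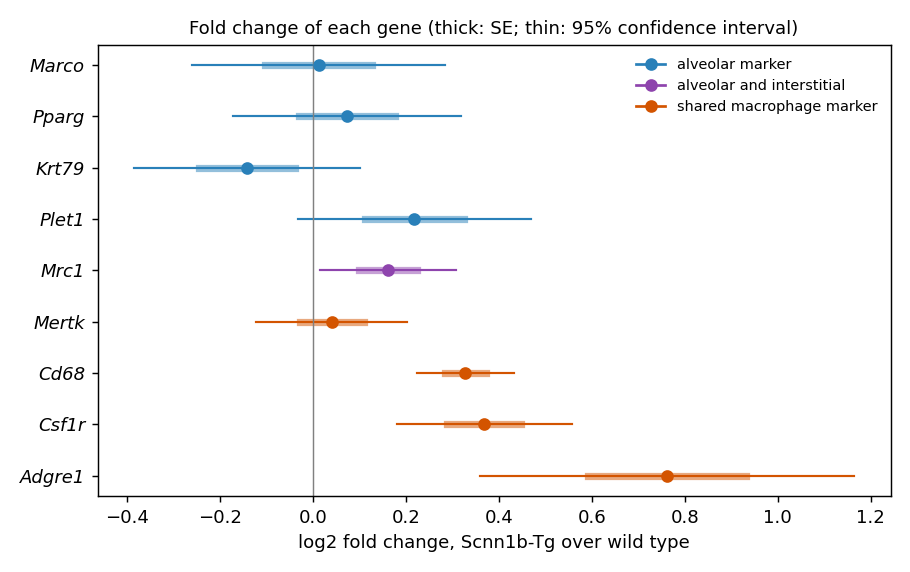
Log2 fold change (x axis, Scnn1b-Tg over wild type) of each gene, with the standard error as a thick bar and the unadjusted 95% confidence interval as a thin line, from limma on 3 arrays per group. Intervals of the 4 alveolar genes (blue) and of Mertk include 0, and those of Mrc1, Cd68, Csf1r and Adgre1 lie above it.

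Set side by side, the median log2 fold change was 0.043 for the 4 alveolar genes and 0.35 for the 4 shared genes, a difference of -0.31 (alveolar minus shared). On single arrays, with each gene set to its wild-type mean, this difference was -0.48, -0.24 and -0.19 in Scnn1b-Tg lungs, against 0.0049, -0.0051 and 0.033 in wild-type lungs. On all 3 Scnn1b-Tg arrays the median of the shared genes was thus above that of the alveolar genes. Single genes did not all follow. Mertk, a shared gene, had -0.027, 0.036 and 0.11 on the Scnn1b-Tg arrays, against 0.033, 0.18 and 0.44 for the alveolar gene Plet1. With Mrc1 counted among the alveolar genes the difference of medians was -0.27, and leaving out each array in turn gave -0.36 to -0.22. The genes were chosen with earlier results known, and the difference was given no test. It holds for these 4 and 4 genes and not for alveolar markers as a class. In the longer lists given below the median was 0.15 for 25 further alveolar markers and 0.068 for 22 interstitial markers. The difference between Adgre1 and Krt79, the members with the highest and the lowest log2 fold change, was 0.90.

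The Scnn1b-Tg arrays differed among themselves in a way that the genes shared. Of the 9 members, 7 were highest of all 6 arrays on Scnn1b-Tg replicate 3, and 6 had their lowest Scnn1b-Tg value on replicate 1. Adgre1 ran the other way, highest on Scnn1b-Tg replicate 1 and lowest of the Scnn1b-Tg arrays on replicate 3. These counts were not made over all genes, so they may be a trait of the arrays. Scnn1b-Tg replicate 3 was also highest for 15 of 24 macrophage growth factors and regulators and 10 of 22 interstitial markers. It was highest for 7 of 25 further alveolar markers and 1 of 10 eosinophil markers. The median deviation of the alveolar genes from the wild-type mean was -0.12, 0.024 and 0.23 on the Scnn1b-Tg arrays and -0.062, 0.017 and 0.072 on the wild-type arrays. That of the shared genes was 0.36, 0.27 and 0.42 on the Scnn1b-Tg arrays and -0.066, 0.022 and 0.039 on the wild-type arrays. Without Scnn1b-Tg replicate 1, 6 of 9 members had separate groups upward, against 11.8% of all genes with the same 5 arrays, a count added after the data were seen. The added members were Plet1 and Marco, and the lowest Marco value of the remaining Scnn1b-Tg arrays was 53.0, against 52.9 on the highest wild-type array.

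Some eosinophil markers had the same order of Scnn1b-Tg arrays as Adgre1. So had genes of other cells, such as the monocyte gene Ccr2 and the neutrophil gene Retnlg. Ccr3, the eotaxin receptor that defines eosinophils, had 199, 133 and 74.4 in Scnn1b-Tg lungs, against 50.9, 42.9 and 48.5 in wild-type lungs, with the same order of Scnn1b-Tg arrays as Adgre1. Prg2, the granule major basic protein, had a log2 fold change of 0.41 ± 0.17 (SE), and Alox15, a lipoxygenase of eosinophils and of alternatively activated macrophages, one of 2.46 ± 0.27 (SE). Of the 10 eosinophil markers 9 were higher (53.2% of all genes), 5 had separate groups upward (6.26%), 5 had an unadjusted p under 0.05 (6.01%) and 0 were called in limma (0.00502%), with a median log2 fold change of 0.21. Their summed intensity was 665 to 1111 in Scnn1b-Tg lungs and 402 to 420 in wild-type lungs, and 7 of the 10 were highest on Scnn1b-Tg replicate 1. A large part of the Scnn1b-Tg sum was Alox15 alone, with 523, 295 and 274, against 76.7, 48.4 and 68.3 in wild-type lungs. Epx, the eosinophil peroxidase, was near the lowest intensities of the arrays and its groups overlapped, at 25.4, 26.7 and 28.0 in Scnn1b-Tg lungs, against 25.0, 26.4 and 25.1 in wild-type lungs. The part of eosinophils in the Adgre1 values was not tested.

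Some fat cell markers were highest on Scnn1b-Tg replicate 3, the array on which Pparg was highest, namely 3 of 6 measured (Adipoq, Retn and Plin1); 1 was highest on Scnn1b-Tg replicate 2 and 2 on wild type replicate 2. Adipoq, which encodes the fat cell hormone adiponectin, had 22.3, 23.5 and 44.3 in Scnn1b-Tg lungs, against 22.0, 23.8 and 23.8 in wild-type lungs, and Retn, resistin, had 34.1, 33.7 and 54.0, against 33.1, 32.0 and 33.4. Lipe, which encodes hormone-sensitive lipase and was not among those highest on Scnn1b-Tg replicate 3, gave a log2 fold change of 0.13 ± 0.082 (SE). Of the 6, 4 were higher (53.2% of all genes) and 1 had separate groups upward (6.26%), with a median of 0.12, and their summed intensity was 241 to 294 in Scnn1b-Tg lungs and 232 to 247 in wild-type lungs. On every array but Scnn1b-Tg replicate 3 Adipoq was near the lowest intensities. Without Scnn1b-Tg replicate 3 the log2 fold change of Pparg was 0.0034, and the part of fat cells in its values was not tested.

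**Figure D3:**
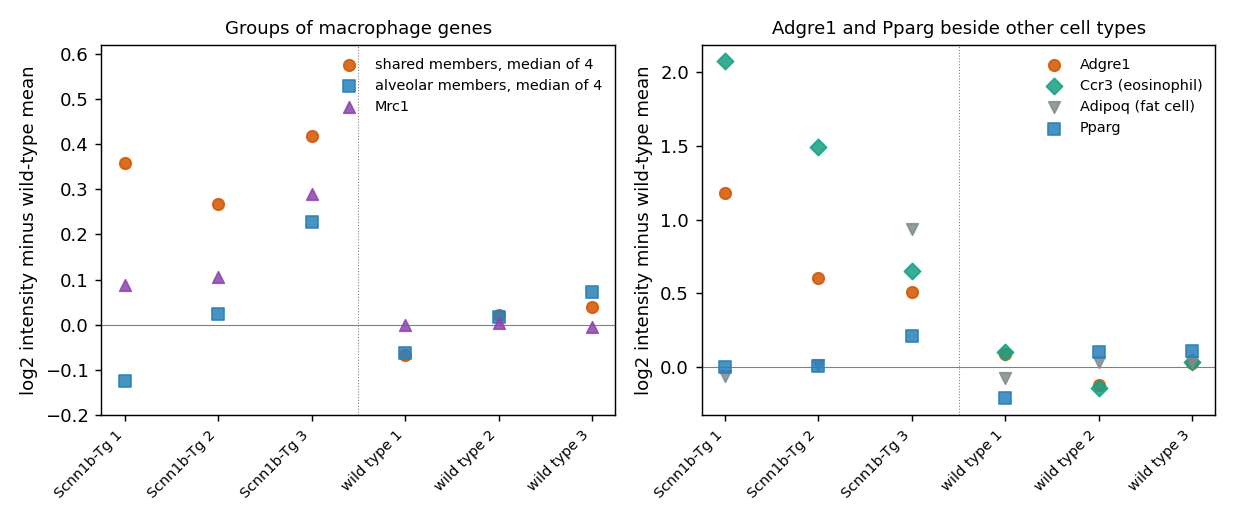
Log2 intensity minus the wild-type mean of each gene (y axis) on each array (x axis). Left, the median of the 4 shared genes, the median of the 4 alveolar genes and Mrc1; the shared genes lie between 0.27 and 0.42 on the Scnn1b-Tg arrays and the alveolar genes between -0.12 and 0.23. Right, Adgre1 is highest on Scnn1b-Tg replicate 1 together with Ccr3, and Pparg is highest on Scnn1b-Tg replicate 3 together with Adipoq.

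Further alveolar macrophage markers gave values in both directions. Of 25 measured, 16 were higher (53.2% of all genes) and 9 lower, 10 had all Scnn1b-Tg arrays above the wild-type arrays (6.26% of all genes) and 4 all below (4.41%). None was called in limma (0 of 25, with 13 at an unadjusted p under 0.05, against 6.01% of all genes), with a median log2 fold change of 0.15. The largest was Chil3, a chitinase-like lectin of alveolar and alternatively activated macrophages, with 2590, 2748 and 1945 in Scnn1b-Tg lungs, against 1144, 1004 and 740 in wild-type lungs (log2 fold change 1.34 ± 0.19, SE; limma adjusted p = 0.146). Itgax, the integrin chain CD11c of alveolar macrophages and dendritic cells, gave 0.53 ± 0.079 (SE; adjusted p = 0.151). Fabp4, a fatty acid binding protein also made by fat cells and capillaries, gave 0.76 ± 0.36 (SE) and was 136 on Scnn1b-Tg replicate 3, against 58.3 and 47.3 on the other Scnn1b-Tg arrays. The next, picked after their values were seen, show both sides: Siglecf, a lectin of alveolar macrophages and eosinophils, gave 0.39 ± 0.092 (SE), while Fabp1 gave -0.36 ± 0.12 (SE) and Il18 -0.23 ± 0.068 (SE). Fabp1 (25.4 to 42.0) and Il18 (30.0 to 40.6) lay below the array medians on every array. The list's summed intensity was 6159 to 7041 in Scnn1b-Tg lungs and 4708 to 4985 in wild-type lungs. Chil3 alone averaged 2428 in Scnn1b-Tg lungs and 963 in wild-type lungs, and the sum without it was 4214 to 4449 in Scnn1b-Tg lungs and 3841 to 3968 in wild-type lungs.

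Among interstitial macrophage markers the 3 largest values belonged to the chains of complement C1q, which tissue macrophages make. C1qb had 120, 111 and 110 in Scnn1b-Tg lungs, against 80.7, 72.4 and 80.4 in wild-type lungs, a log2 fold change of 0.54 ± 0.062 (SE; limma adjusted p = 0.109). C1qc gave 0.54 ± 0.14 (SE) and C1qa 0.39 ± 0.048 (SE), and all 3 chains had separate groups. Over the list, 18 of 22 were higher (53.2% of all genes), 4 had separate groups in that direction (6.26%) and 0 in the other (4.41%), and 0 were called in limma (5 at an unadjusted p under 0.05, against 6.01%), with a median of 0.068. The list's summed intensity overlapped between the groups, at 7185 to 7739 in Scnn1b-Tg lungs and 6892 to 8188 in wild-type lungs. A large part of that sum was 1 gene, Cbr2, named only for its weight in it. Cbr2 had 2904, 3052 and 3391 in Scnn1b-Tg lungs, against 3218, 3991 and 3328 in wild-type lungs. The overlap of the sum therefore does not speak for the dimmer genes of the list.

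The ligands and partners of the members gave log2 fold changes of -0.032 to 0.31. Of 24 growth factors, receptors and transcription factors, 20 were higher (53.2% of all genes), 7 had separate groups in that direction (6.26%) and 0 in the other (4.41%), 0 were called in limma (7 at an unadjusted p under 0.05, against 6.01%), and the median log2 fold change was 0.13. For Csf1r, the ligand gene Csf1 gave 0.14 ± 0.042 (SE) with separate groups and the other ligand, Il34, 0.0033 ± 0.043 (SE). For the GM-CSF pathway that maintains alveolar macrophages, the ligand Csf2 gave 0.091 ± 0.082 (SE) and the receptor α chain Csf2ra 0.15 ± 0.091 (SE). The common β chain Csf2rb gave 0.31 ± 0.096 (SE). Of that pathway's genes named here, Csf2rb had separate groups, and the ligand and the α chain did not. The mouse-specific IL-3 receptor β chain Csf2rb2 gave 0.29 ± 0.083 (SE), also with separate groups. Csf2ra and Csf2rb also stand on the alveolar list above. Rxra, the partner of PPARγ, gave 0.27 ± 0.085 (SE) with separate groups, and Spi1, which encodes PU.1, gave 0.12 ± 0.094 (SE). Klf4, a monocyte and endothelial transcription factor, gave 0.30 ± 0.14 (SE), and the MERTK ligand Gas6 gave 0.0087 ± 0.079 (SE).

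Genes of other myeloid cells were read for the same arrays, and the shares of all genes to set beside these counts are 53.2% higher, 6.26% separate upward and 4.41% separate downward. Among monocyte markers (9 of 13 higher, 3 with separate groups, median 0.11) Itgam, CD11b, gave 0.91 ± 0.15 (SE) and Ccr2, the chemokine receptor of inflammatory monocytes, had 93.3, 83.6 and 63.4 in Scnn1b-Tg lungs, against 60.4, 46.8 and 44.7 in wild-type lungs. The next, the proteoglycan Vcan, gave 0.29 ± 0.25 (SE). Of the 13 markers, 3, Itgam and Ccr2 among them, were highest on Scnn1b-Tg replicate 1, as was Adgre1, and 5 on replicate 3. The list's median deviation from the wild-type mean was -0.010, 0.084 and 0.31 on the Scnn1b-Tg arrays and 0.018, -0.065 and 0.0047 on the wild-type arrays. Of 16 dendritic cell markers 15 were higher and 7 had separate groups, with a median of 0.14. The lectin Mgl2 gave 0.81 ± 0.23 (SE), the chemokine Ccl17 0.77 ± 0.14 (SE) and the lectin Cd209a 0.58 ± 0.27 (SE), and Mgl2 and Cd209a are also made by macrophages. Of 13 neutrophil markers 8 were higher, with a median of 0.038, 2 with groups separate upward and 1 downward. Retnlg gave 1.38 ± 0.35 (SE), Mmp9 0.30 ± 0.081 (SE) and Ltf 0.28 ± 0.10 (SE). Summed intensities in Scnn1b-Tg and wild-type lungs were 1246 to 1457 and 1160 to 1214 for monocyte markers, 835 to 955 and 726 to 759 for dendritic cell markers, and 783 to 1045 and 556 to 679 for neutrophil markers. Much of the neutrophil sum was Retnlg alone, with 562, 331 and 245 in Scnn1b-Tg lungs, against 189, 94.4 and 145 in wild-type lungs. At an unadjusted p under 0.05 there were 3, 5 and 5 on these lists (6.01% of all genes), none was called in limma, and their part in the values of Adgre1, Csf1r and Cd68, which monocytes or dendritic cells also express, was not tested.

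Markers of tissue cells, some of which can carry members, were read on the same arrays. Of 6 lymphatic endothelial markers, another source of Mrc1, 5 were higher (53.2% of all genes) with a median of 0.098 and 0 with separate groups (6.26% upward), and the largest were Prox1 (0.14 ± 0.077, SE), Flt4 (0.13 ± 0.15) and Pdpn (0.13 ± 0.075). Their summed intensity was 1166 to 1238 in Scnn1b-Tg lungs and 1057 to 1329 in wild-type lungs. Of 8 alveolar type 2 markers, another source of Pparg, 6 were higher and 1 was separate upward, with a median of 0.030, and the largest sizes were Lamp3 (-0.19 ± 0.12, SE), the surfactant protein gene Sftpa1 (0.14 ± 0.095) and Napsa (-0.13 ± 0.099). Their summed intensity was 18282 to 19329 in Scnn1b-Tg lungs and 17698 to 19633 in wild-type lungs. Of 8 airway epithelial markers 6 were lower and 2 were separate downward (4.41% of all genes), with a median of -0.048, led by the club cell genes Cyp2f2 (-0.48 ± 0.080, SE), Scgb1a1 (-0.31 ± 0.069) and Scgb3a2 (-0.29 ± 0.17). Their summed intensity was 5992 to 6341 in Scnn1b-Tg lungs and 7086 to 8302 in wild-type lungs. Krt5, Krt8 and Krt18, the keratins on that list and named only for comparison with Krt79, gave -0.063, -0.031 and 0.030.

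**Figure D4:**
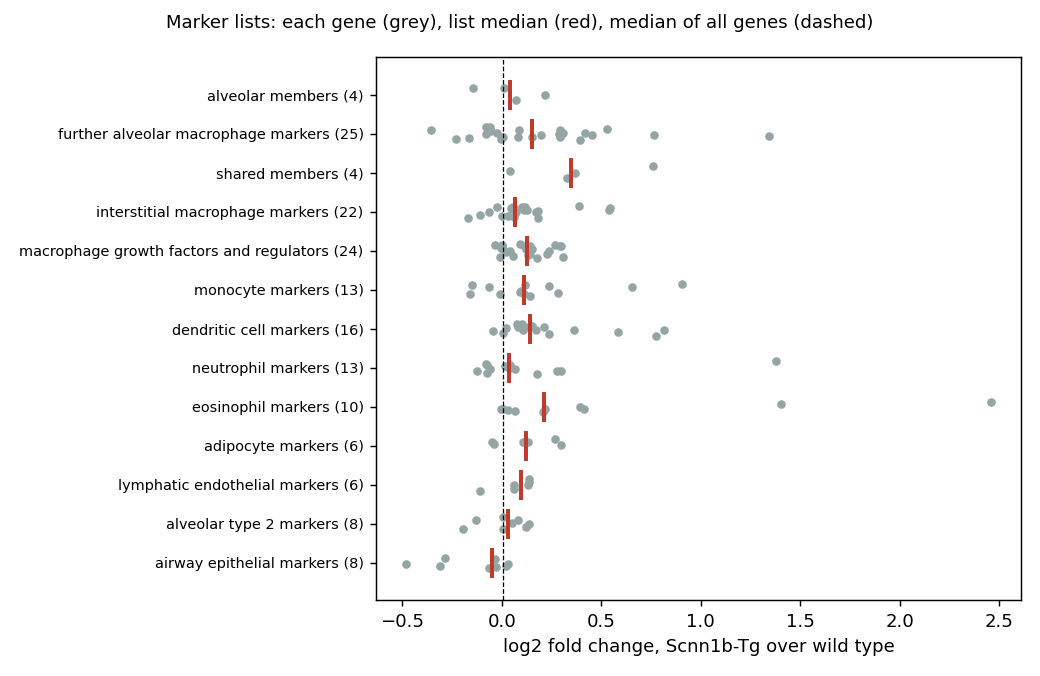
Log2 fold change (x axis, Scnn1b-Tg over wild type) of every measured gene of each marker list (grey points, number measured in brackets), with the list median in red and the median of all genes, 0.0052, dashed. The shared macrophage genes have a median of 0.35 and the alveolar members one of 0.043, and the eosinophil list holds the single largest values. The further alveolar markers have a median of 0.15 and the interstitial markers one of 0.068.

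Genes with the profile nearest to a member were found by the root mean square difference over the 6 arrays of log2 values, each centred on its own mean, among 9967 genes at or above the median intensity. Nearest to Adgre1 were Pla2g7, which encodes a secreted phospholipase that macrophages make (0.090 apart on the log2 scale; log2 fold change 0.89 ± 0.13, SE), Ncf1, a subunit of the phagocyte NADPH oxidase (0.095; 0.68 ± 0.15) and Lpcat2, a lipid acyltransferase (0.12; 0.59 ± 0.12). Nearest to Csf1r were Tent5a (0.054), Laptm5, a lysosomal protein of blood cells (0.059), and Hcls1, a cytoskeletal adaptor of blood cells (0.059). Nearest to Plet1 were Fasn, fatty acid synthase (0.018), the transcription factor Runx1 (0.030) and Ric1 (0.033). Among the members themselves the closest pairs were Pparg with Mertk (0.060), Cd68 with Csf1r (0.083), Plet1 with Mrc1 (0.084) and Marco with Krt79 (0.089). With 6 arrays, nearness is a description only and was not tested.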

How the data were processed

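RNA of whole lung, extracted with Trizol, was labelled as sense target and read on Affymetrix whole-transcript arrays, according to the labels' protocols. The authors deposited RMA intensities, 1 value per probe set and sample (RMA per the submitters' processing notes). Their linear scale was read from the values, with array minima of 18.3 to 18.6. The sources used here give no RMA version or settings, and a constant added before deposit would shrink fold changes of dim genes. Of 28815 probe sets 21780 had 1 gene symbol, and the brightest per gene left 19935 genes. Genotype was the only term of a limma fit (version 3.58.1, R 4.3.3, lmFit and eBayes) to log2 intensities, two-sided, with 4 residual degrees of freedom, Benjamini-Hochberg adjustment over all genes and calls at an adjusted p under 0.05. The fit was tested on simulated data.

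The members and all 14 gene lists (169 entries, 160 measured, the 9 members included) were chosen with earlier results of these data known. Genes were named by rule: all members, per list the 3 largest absolute log2 fold changes, partners of the members, and for Adgre1, Csf1r and Plet1 the 3 nearest profiles. Exceptions are marked, except Sftpc and Scgb1a1, which check the tissue, and Epx and Plin1, which were added outside the rule. Alternatives were other normalizations, filters, probe set means, variance models, 16 subtracted before log2, a replicate block and arrays left out. Pairing by replicate number was checked by the correlation across genes of deviations from the group means, 0.026, 0.028 and 0.039 for equal numbers, so the numbers were not taken as pairs.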

Additional observations from a re-analysis of the deposited data

How the results depend on the processing

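No member passed an adjusted p of 0.05 in any of 15 alternatives each, the smallest being 0.0709 for Cd68 with array weights and 0.0775 for Adgre1 after dropping the 6645 genes of lowest intensity. Of the 135 values 126 kept their sign. The 9 that turned belonged to Marco, Pparg and Mertk. Marco gave -0.018 after quantile normalization, -0.0089 with arrays centred and -0.032 with array weights, and -0.12 with the arrays that stood apart (wild type replicate 2, Scnn1b-Tg replicate 3) both left out. Leaving out each array in turn gave -0.10 to 0.14 for Marco, -0.033 to 0.13 for Pparg and -0.023 to 0.080 for Mertk. The causes were not tested. The difference between alveolar and shared genes kept its sign in 17 alternatives (-0.36 to -0.22), and the number of members with separate groups upward was 4 to 6 when each array was left out in turn, where 9.88% to 13.6% of all genes were separate.

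Over all genes 39 were called after dropping the 6645 dim genes, 36 with an intensity trend and robust variance, 23 with 16 subtracted, 3 with the replicate block and 6 without the arrays that stood apart. Leaving out each array in turn gave 0 to 5 (0 by limma lacking wild type replicate 3, with 1011 at an unadjusted p under 0.05, and 5 lacking the third Scnn1b-Tg array). With the replicate block the adjusted p of Adgre1 was 0.351, and no member was called. Every array correlated best with its own number in the other genotype, a hint from the data and not from the design. The median of the further alveolar markers was 0.29 after dropping the dim genes and 0.11 with array weights. That of the interstitial markers was 0.061 and 0.051 in these settings. The neutrophil median turned to -0.037 with array weights, to -0.014 without the arrays that stood apart, and ran from -0.029 to 0.068 with each array left out. The fat cell median ran from -0.0023 to 0.16 and the alveolar type 2 median from -0.027 to 0.084 (-0.0013 without the arrays that stood apart). Each member was read by 1 probe set, so a second probe set could not be tried. With 3 arrays per group the number of arrays limits the precision.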
